A study of Mus musculus with 2 samples.

Results

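The 48 genes described here are active in dividing cells. They comprise 23 genes of S phase, when DNA is copied, and 25 genes of the G2 and M phases, when the cell prepares to divide and divides. They were taken as a list of symbols, and all 48 were found among the 32285 genes of the count matrices. Expression was measured by single-nucleus RNA sequencing of the colon in 2 libraries, 1 of Pink1 knockout mice and 1 of their wild-type littermates. All mice were males on the C57BL/6 background aged 15 weeks. The kinase PINK1 tags failing mitochondria for disposal. The design of the knockout allele was not stated in the labels. Sorted nuclei of 3 mice per genotype were pooled before loading, so mice cannot be told apart within a library. There are no replicates, no test was made between genotypes, and every interval below covers counting error only. The labels place the wild-type library in batch 1 and the knockout library in batch 2, so genotype, library and batch cannot be told apart.

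Colon epithelium is renewed from the base of the crypts, pits in the mucosa where stem cells and their early progeny divide. Daughter cells leave the cycle as they move up and become absorptive colonocytes, mucus-secreting goblet cells or hormone-secreting cells. The MCM helicase is loaded at origins by CDC6 and CDT1 before S phase. In S phase it unwinds the DNA, while polymerases, their clamp PCNA and enzymes that make nucleotides serve to copy it. E2F factors drive the S phase genes. In G2 and M, cyclin B with CDK1 and the Aurora and Polo kinases drive mitosis, kinetochore proteins attach chromosomes to the spindle, and kinesins and anillin separate the daughter cells. Many of these later genes are held off by a complex that binds a promoter element called the CHR.

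After filters and doublet removal, 8256 wild-type and 10966 knockout nuclei were kept, with a median of 1626 and 1570 unique molecular identifiers (UMIs, counts of captured RNA molecules) per nucleus. The libraries shared 28 cell barcodes, 22 of them among the kept nuclei. Pink1 itself gave 170 wild-type and 113 knockout UMIs, a knockout to wild-type ratio of 0.541 (95% counting interval 0.422 to 0.690). Levels and ratios are on the CPM scale, a gene's share of all UMIs of nuclear-encoded genes in the nuclei concerned. Intervals on ratios of UMIs treat each UMI as an independent draw. They do not cover the spread of UMIs between nuclei, so they can be too narrow. Because the deleted part of the gene was not stated, Pink1 UMIs in the knockout library do not check the label. Nuclei were grouped by clustering from which 241 cell cycle genes, the members among them, were left out as variables. The 1695 wild-type and 2116 knockout nuclei called crypt base-like below carried markers such as Lgr5, Smoc2 and Axin2. Below, "at the crypt base" means in this class of nuclei, whose position in the tissue was not measured. Lgr5 was at 123 and 125 CPM in them, against 3.03 and 2.16 CPM in goblet-like nuclei. The class joined cluster 1, led by Fut9, Smoc2, Nox1 and Lgr5, and cluster 2, led by Dtl, Top2a, Ntrk2 and Hoxb8. Of the 13 crypt base markers, 4 were at least 2-fold higher in cluster 2 than elsewhere, against 11 in cluster 1, and cluster 2 also held 1681 and 1630 CPM of the 16 summed colonocyte markers. Its crypt base markers summed to 1515 and 1372 CPM, against 3608 and 3433 CPM in cluster 1, while its member levels were the higher of the 2 clusters.

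Both sets were concentrated in crypt base-like nuclei in both libraries. The S set reached 1588 CPM in wild-type and 1875 CPM in knockout crypt base-like nuclei, from 4724 and 6475 UMIs. The G2/M set reached 3159 and 3144 CPM there, from 9395 and 10856 UMIs. Crypt base-like nuclei with at least 10 member UMIs held 77.9% (wild type) and 76.7% (knockout) of the member UMIs of their class. In colonocyte-like nuclei the S set stood at 145 and 138 CPM and the G2/M set at 155 and 152 CPM. Goblet-like nuclei lay between these, at 318 and 244 CPM for S and at 541 and 336 CPM for G2/M. Cluster 0, an unnamed epithelial cluster led by Gk and Gsdmc3, held 295 and 319 CPM of the S set and 561 and 497 CPM of the G2/M set. The crypt base-like class thus held 62.6% of all member UMIs in the wild-type and 65.8% in the knockout library. This share depended on the clustering and its naming, and was lower at both other resolutions. It was 22.5% and 20.5% at the coarser resolution of 0.5 and 34.2% and 33.1% at the finer resolution of 2.

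**Figure D1:**
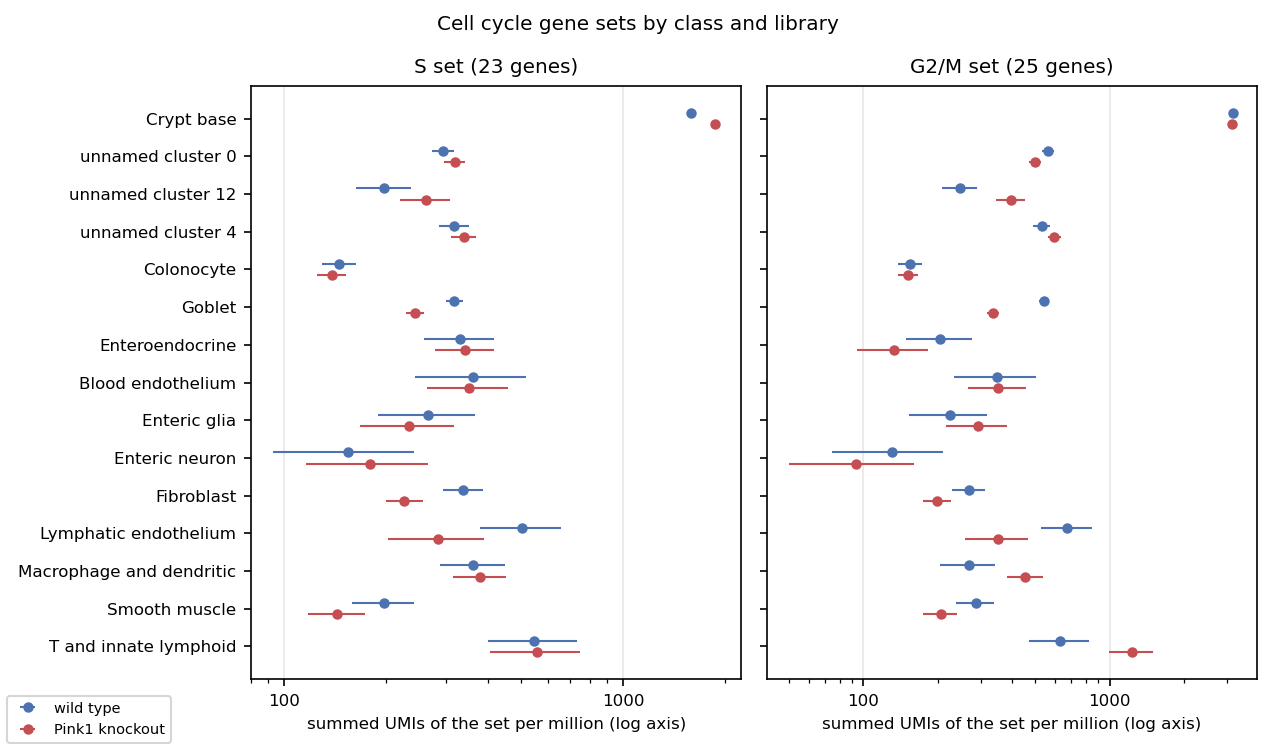
Summed level of the S set (left) and the G2/M set (right) in CPM on a log axis, by class with at least 50 nuclei in each library. Points are the wild-type and the knockout library, bars are exact 95% Poisson intervals, and the crypt base-like class lies to the right of all the others in both libraries.

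Of the 48 members, 46 were at least 2-fold higher in crypt base-like than in other epithelial nuclei in both libraries, against 12% of the 13179 genes measured. Members led cluster 2 of that class although they were left out of the clustering, so this is a description and not a test. The fold was greatest for Neil3, a DNA glycosylase, in the wild-type library (15.9-fold) and for E2f7, a repressor of the E2F family, in the knockout library (22.7-fold). The median member of the S set was 8.79-fold higher in wild-type and 11.5-fold higher in knockout crypt base-like nuclei. For the G2/M set the medians were 7.94-fold and 9.96-fold.

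The exceptions were Gins2, a subunit of the replicative helicase, and Plk1, the Polo kinase of mitosis. Gins2 gave 83 wild-type and 87 knockout UMIs in crypt base-like nuclei, 27.9 and 25.2 CPM, but 161 and 200 UMIs in goblet-like nuclei, 44.3 and 48.1 CPM. Only 18.7% and 15.6% of its UMIs lay in the crypt base-like class. On GRCm38 the gene lies at chr8:120578633-120589304 on the minus strand and overlaps the 3′ end of Gse1 on the plus strand, which ends at base 120581390. Gse1 was at 131 and 146 CPM in goblet-like nuclei and at 54.8 and 64.0 CPM in crypt base-like nuclei. Plk1 gave 42 and 63 UMIs in crypt base-like nuclei and 101 and 118 UMIs in goblet-like nuclei, where it stood at 27.8 and 28.4 CPM. It lies at chr7:122159439-122169873 on the plus strand, and its 3′ end is 20 bases from that of Ern2, which runs on the minus strand. Ern2, a stress sensor of mucus-secreting cells and one of the goblet markers, was at 942 and 934 CPM in goblet-like nuclei and at 123 and 128 CPM in crypt base-like nuclei. Both neighbours thus followed the same order between the 2 classes as the members beside them. The labels do not state a strand setting for the counting, so whether it kept reads of these overlapping or abutting pairs apart is not known. The part of the neighbours in these values was not tested.

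**Figure D2:**
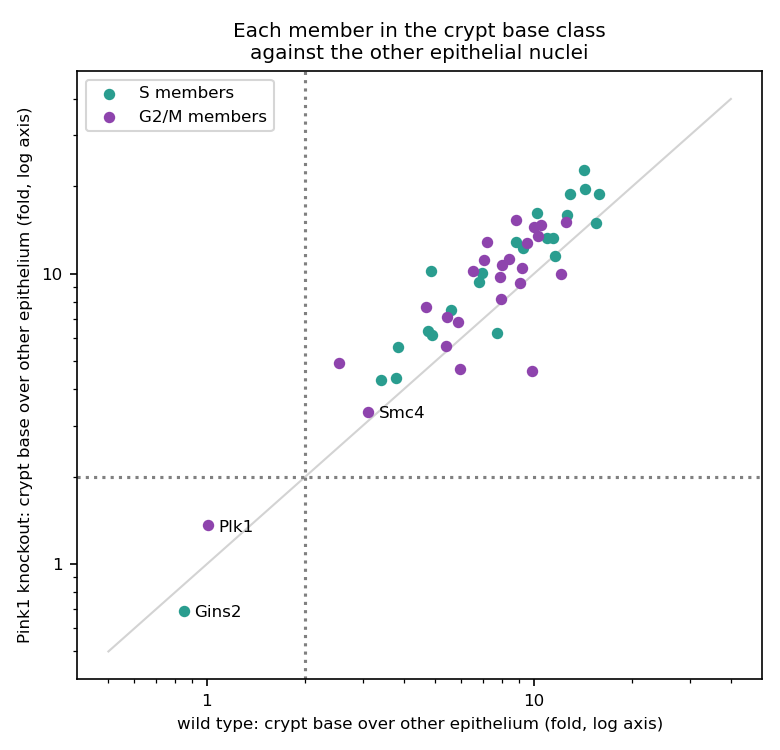
Fold of each member in crypt base-like nuclei over the other epithelial nuclei, wild type on the horizontal and knockout on the vertical log axis, with dotted lines at 2-fold. Each point is 1 gene; 46 of 48 lie above 2-fold in both libraries, and Gins2 and Plk1 lie below.

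Some members were found widely away from the crypt base. Smc4, a condensin subunit that packs chromosomes, had only 39.5% and 39.7% of its UMIs in crypt base-like nuclei. It reached 321 and 317 CPM in T and innate lymphoid-like nuclei (27 and 25 UMIs), above its 153 and 182 CPM at the crypt base. Mki67, which codes for the Ki-67 coat of mitotic chromosomes, had most of its UMIs at the crypt base (67.6% and 71.0%). In plasma-like nuclei it stood at 333 and 321 CPM, although this rests on 16 and 31 UMIs. Its crypt base level was higher, at 742 and 638 CPM. Pcna, Ezh2 and Tyms had 43.1% and 46.1%, 48.4% and 51.8%, and 50.1% and 58.5% of their UMIs at the crypt base. Most of the rest lay in other epithelium, since the epithelium as a whole held 85.7% and 83.3% of Pcna, 91.6% and 92.8% of Ezh2 and 94.3% and 94.9% of Tyms UMIs. Ezh2 is the methyltransferase of the Polycomb repressive complex and Tyms makes thymidylate for DNA synthesis.

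To count nuclei rather than molecules, each nucleus was thinned at random to 500 UMIs, and nuclei with at least 3 member UMIs from at least 2 members were counted as cycling. In the epithelium 625 of 6849 wild-type nuclei (9.13%) and 763 of 8619 knockout nuclei (8.85%) met this, a ratio of 0.970 (0.872 to 1.08), and without thinning the shares were 20.9% and 19.1%, a ratio of 0.915 (0.852 to 0.983). The interval also lay below 1 under the stricter filter (0.885, 0.788 to 0.994) and with separate clustering (0.893, 0.802 to 0.994). Crypt base-like shares were 28.6% and 31.0%, a ratio of 1.09 (0.964 to 1.22). They were 3.29% and 1.17% in goblet-like and 0.381% and 0.432% in colonocyte-like nuclei. Free RNA can give UMIs in any nucleus, so a tissue with little division serves as background: smooth muscle-like nuclei (median 1240 and 1276.5 UMIs) had a thinned member UMI in 16.2% and 15.8%, wild type first, and crypt base-like nuclei (median 1596 and 1532.5 UMIs) in 61.2% and 62.4%. The threshold of 3 UMIs was met by 0.676% and 0.190% of the smooth muscle-like nuclei.

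The crypt base-like nuclei were then split by which set their UMIs came from. Nuclei with at least 2 thinned UMIs of both sets made up 8.91% of the class in wild type (151 nuclei) and 12.4% in knockout (263 nuclei), a ratio of 1.40 (1.14 to 1.72). Nuclei with at least 2 UMIs of the G2/M set alone made up 19.4% and 16.8%, a ratio of 0.867 (0.744 to 1.01). Those of the S set alone made up 7.73% and 9.07%, a ratio of 1.17 (0.935 to 1.48). The interval of the ratio lay above 1 for nuclei with both sets and included 1 for the other 2 kinds. Over the whole epithelium the ratio was 0.785 (0.689 to 0.893) for the G2/M set alone, with the interval below 1. There it was 1.36 (1.12 to 1.65) for both sets and 1.10 (0.905 to 1.34) for the S set alone. The kinds were not tested against each other.

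**Figure D3:**
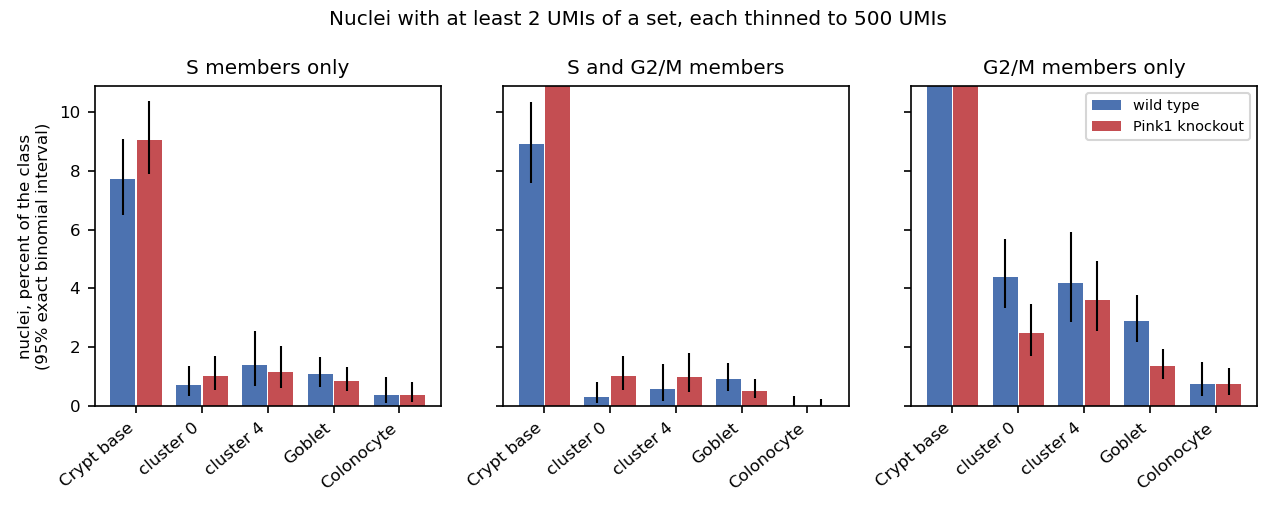
Share of nuclei in 5 epithelial classes with at least 2 UMIs of the S set only, of both sets, or of the G2/M set only, each nucleus thinned to 500 UMIs. Bars are the 2 libraries with exact 95% binomial intervals; at the crypt base the share with both sets is 8.91% in wild type and 12.4% in knockout.

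The members were next placed along the cycle by genes outside the list. In crypt base-like nuclei with at least 10 UMIs over 75 other S phase and 118 other G2/M genes, the share of G2/M UMIs divided the nuclei into S-rich (252 wild-type, 342 knockout), middle (235, 328) and G2/M-rich bins (272, 348). All 25 G2/M members were higher in CPM in the G2/M-rich than in the S-rich bin in both libraries, with a median ratio of 5.96 in wild type and 4.70 in knockout. Cenpf, a large kinetochore protein that builds up in G2, went from 101 to 964 CPM along this axis in wild type (51 and 574 UMIs) and from 69.3 to 735 CPM in knockout (43 and 497 UMIs). Aspm, a spindle pole protein, was steepest at 19.8 and 49.2, though its S-rich bins held 3 and 1 UMIs. Ncapg2, a subunit of condensin II, was flattest at 1.25 and 1.21.

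Fewer S members kept to their side. Of the 23, 15 were higher in the S-rich bin in both libraries, such as E2f1, whose G2/M-rich over S-rich ratio was 0.226 in wild type and 0.225 in knockout, and Cdt1, at 0.241 and 0.257. Another 6 were higher in the G2/M-rich bin in both libraries. These were Esco2, which builds cohesion between sister chromatids (3.65 and 3.95), Neil3 (2.95 and 3.55), Rrm2 (2.46 and 1.86) and Rrm1 (1.01 and 1.21), the ribonucleotide reductase subunits, and the repressors E2f7 (1.79 and 1.65) and E2f8 (1.51 and 1.42). Brca1 and Ezh2 lay on different sides of 1 in the 2 libraries. The list behind the axis holds 9 histone genes known to be made in S phase. Without them all 25 G2/M members were again higher in the G2/M-rich bin in both libraries, 14 S members were higher in the S-rich and 7 in the G2/M-rich bin, Brca1 (1.25 and 1.09) being added to the 6.

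**Figure D4:**
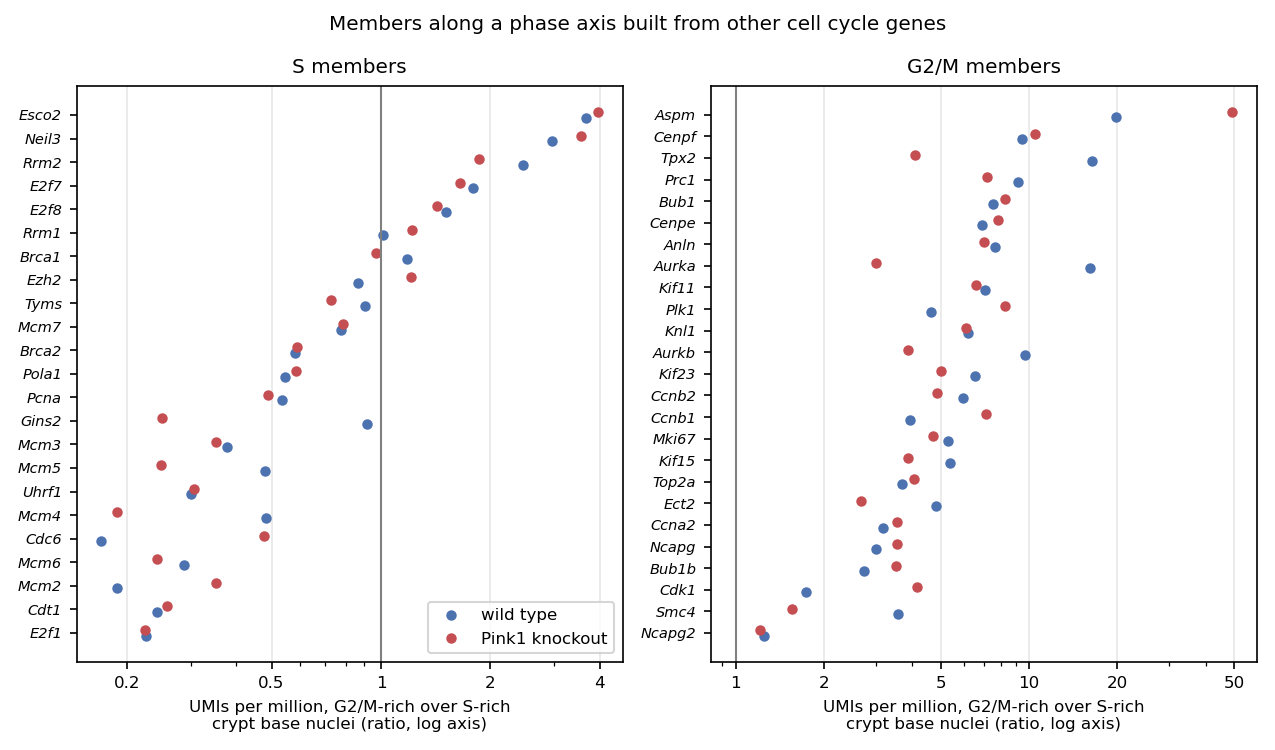
Ratio of CPM in G2/M-rich over S-rich crypt base-like nuclei for each S member (left) and each G2/M member (right), on log axes, 1 point per library. All 25 G2/M members lie above 1, while 6 S members, Esco2 and Neil3 foremost, lie above 1 in both libraries.

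The promoters of the 2 sets also differ in their letters. RefSeq promoter windows (GRCm38.p6, 250 bases before to 50 after the start) were matched by symbol for 41 members, 20 of the S and 21 of the G2/M set. The E2F letters TTTCGCGC, TTTGGCGC or TTTCCCGC, the CHR letters TTTGAA or TTCGAA, and CCAAT were searched on both strands, and a base could count for more than 1 motif. CHR letters were found for 19 of 21 G2/M members and 4 of 20 S members, against 21.7% of all 27025 genes with a window. E2F letters were found for 11 S members and 4 G2/M members, against 2.12% of all genes. CCAAT was found for 14 S and 17 G2/M members, against 41.1% of all genes, and CHR letters with CCAAT for 15 of the G2/M members, against 8.61%. The 2 G2/M members without CHR letters were Cenpe and Ccnb1, and the 4 S members with them were Mcm2, Mcm7, E2f8 and Neil3. E2f8 and Neil3 are among the 6 S members that were higher in the G2/M-rich bin, while Mcm2 and Mcm7 were higher in the S-rich bin. Rrm1, Rrm2 and E2f7, also among those 6, had no CHR letters, and Esco2 had no window. A match is a description of these letters and not of binding.

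The bases before the start are shown for the 3 members of each set with the most UMIs, to let the 2 promoter types be compared, 5′ to 3′ on the gene's strand with the matched motifs in capitals on either strand. All 6 genes run on the minus strand of GRCm38.p6: Ezh2 chr6:47595031-47595280, Tyms chr5:30073626-30073875, Pola1 chrX:93632156-93632405, Mki67 chr7:135716380-135716629, Cenpf chr1:189688087-189688336 and Top2a chr11:99024190-99024439.
Ezh2: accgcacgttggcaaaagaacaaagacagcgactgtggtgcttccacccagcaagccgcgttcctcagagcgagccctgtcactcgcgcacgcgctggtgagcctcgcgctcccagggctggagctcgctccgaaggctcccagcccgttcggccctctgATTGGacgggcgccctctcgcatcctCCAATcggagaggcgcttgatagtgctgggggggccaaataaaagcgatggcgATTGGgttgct
Tyms: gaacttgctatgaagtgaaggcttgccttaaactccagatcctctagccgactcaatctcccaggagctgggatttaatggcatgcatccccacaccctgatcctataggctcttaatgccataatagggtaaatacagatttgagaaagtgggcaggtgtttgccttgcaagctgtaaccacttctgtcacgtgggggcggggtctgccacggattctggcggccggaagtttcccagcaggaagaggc
Pola1: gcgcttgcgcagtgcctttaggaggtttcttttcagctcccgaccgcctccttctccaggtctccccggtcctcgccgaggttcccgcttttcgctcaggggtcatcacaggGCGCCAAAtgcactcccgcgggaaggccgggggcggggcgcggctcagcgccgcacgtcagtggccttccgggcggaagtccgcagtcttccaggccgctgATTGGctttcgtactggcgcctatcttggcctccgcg
Mki67: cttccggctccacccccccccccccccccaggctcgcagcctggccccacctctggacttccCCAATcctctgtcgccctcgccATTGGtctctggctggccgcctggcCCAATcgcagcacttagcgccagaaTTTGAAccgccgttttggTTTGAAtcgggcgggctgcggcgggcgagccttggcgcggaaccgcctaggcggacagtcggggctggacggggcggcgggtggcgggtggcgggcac
Cenpf: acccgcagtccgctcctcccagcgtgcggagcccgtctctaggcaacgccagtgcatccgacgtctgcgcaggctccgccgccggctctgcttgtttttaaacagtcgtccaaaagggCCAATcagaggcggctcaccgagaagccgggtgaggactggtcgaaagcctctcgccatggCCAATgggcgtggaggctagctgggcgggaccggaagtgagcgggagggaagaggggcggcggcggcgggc
Top2a: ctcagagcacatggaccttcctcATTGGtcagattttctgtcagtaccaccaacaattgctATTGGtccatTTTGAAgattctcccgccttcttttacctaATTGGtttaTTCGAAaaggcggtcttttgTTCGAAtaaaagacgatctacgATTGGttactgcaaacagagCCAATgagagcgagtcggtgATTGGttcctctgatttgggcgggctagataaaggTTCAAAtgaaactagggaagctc
Top2a, which untangles DNA before the chromosomes separate, carries 6 CCAAT and 4 CHR matches in these 250 bases. Mki67 carries 3 CCAAT matches and TTTGAA at 116 and 98 bases before the start. The CHR letters of Cenpf and TTTGGCGC of Ezh2 lie just past the start and so are not in the printed bases. Pola1, the catalytic subunit of the polymerase that lays down primers, carries TTTGGCGC on the opposite strand, starting 138 bases before the start. Tyms carries none of the motifs.

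Between genotypes, the summed S set had a higher ratio than the summed G2/M set over all nuclei and in crypt base-like nuclei. Outside the epithelium the order was the other way, at 0.775 (0.697 to 0.862) for S and 0.939 (0.851 to 1.04) for G2/M. The G2/M sum is weighted by Mki67 and Cenpf, its most counted members over both libraries, whose ratios were below 1. At the crypt base 19 of 25 G2/M members were above 1, and the median member ratio was 1.14 for S and 1.10 for G2/M. Over all nuclei the S set stood at 536 CPM in wild type (8080 UMIs) and 552 CPM in knockout (10233 UMIs), a ratio of 1.03 (1.00 to 1.06). The G2/M set stood at 960 CPM (14470 UMIs) and 869 CPM (16100 UMIs), a ratio of 0.905 (0.885 to 0.926). In crypt base-like nuclei the S ratio was 1.18 (1.14 to 1.23) and the G2/M ratio 0.995 (0.968 to 1.02). The S ratio was alike in cluster 1 (1.17) and cluster 2 (1.15), and in the S-rich, middle and G2/M-rich bins it was 1.14, 1.15 and 1.18. The G2/M ratio in those bins was 1.16 (1.06 to 1.27), 1.06 (1.00 to 1.13) and 0.986 (0.949 to 1.02), so in the S-rich bin the ratios of the sets were alike. Without the histone genes in the axis the last of these was 1.04 (1.00 to 1.08). Over the epithelium, G2/M UMIs per S UMI were lower in the knockout library, with an odds ratio of 0.861 (0.828 to 0.894). The G2/M set without Mki67 against the S set without Ezh2 gave an odds ratio of 0.917. When each library was clustered on its own, the crypt base S ratio was 1.05 (1.01 to 1.09) and the G2/M ratio 0.868 (0.844 to 0.892).

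A member was called apart at a ratio of at least 1.5-fold with at least 50 UMIs over both libraries. Over all nuclei, 1 of 23 S members was higher in the knockout library, where 5.3% of 14621 genes were higher, and 0 were lower, where 5.77% were lower. Of the 25 G2/M members 0 were called in either direction. In the crypt base-like class 1 S member was higher, against 3.67% of 10338 genes, and 1 G2/M member was lower, against 4.57%. The counts of called members were thus near the background or under it. The median log2 ratio at the crypt base was 0.19 for the S members and 0.13 for the G2/M members, against -0.00 over all genes, and 19 of 23 and 19 of 25 members had ratios above 1.

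**Figure D5:**
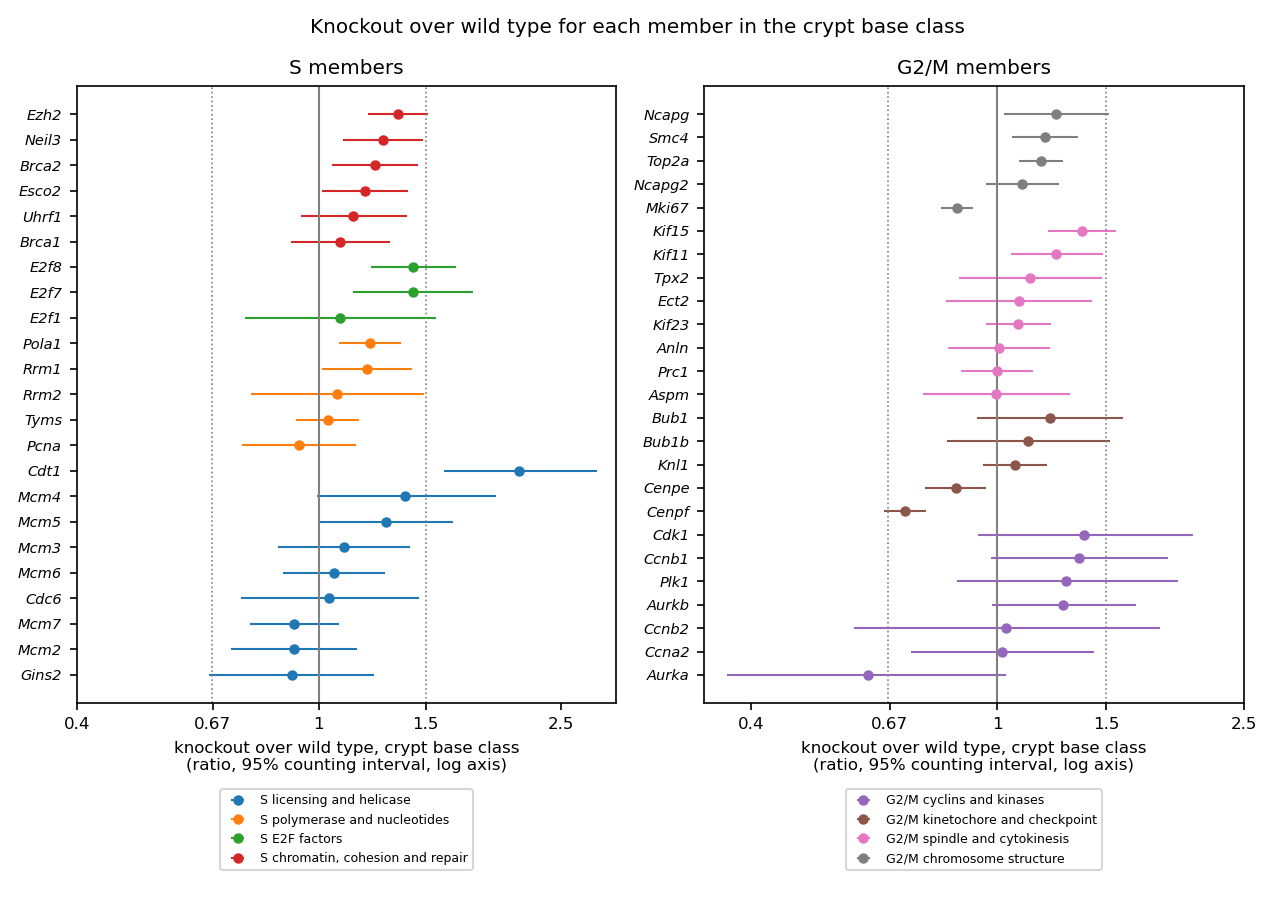
Knockout over wild-type ratio of each member in crypt base-like nuclei, S members left and G2/M members right, coloured by role, with 95% counting intervals on a log axis and dotted lines at 1.5-fold in each direction. Cdt1 lies furthest right at 2.13, Aurka (0.618, few UMIs) and Cenpf (0.709) furthest left.

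Among the 9 licensing and helicase genes the S member past the call was Cdt1, which loads the MCM helicase at origins. Cdt1 (chr8:122568015-122573554, plus strand) gave 129 UMIs in the wild-type and 244 in the knockout library, 8.56 and 13.2 CPM, a ratio of 1.54 (1.24 to 1.92). The difference lay at the crypt base, where it gave 69 and 171 UMIs, 23.2 and 49.5 CPM, a ratio of 2.13 (1.61 to 2.87). Goblet-like nuclei held 22 and 18 UMIs and colonocyte-like nuclei 11 and 16. In the S-rich, middle and G2/M-rich bins its ratio was 1.71 (1.11 to 2.67), 2.97 (1.66 to 5.65) and 1.86 (0.802 to 4.67). A Cdt1 UMI was present in 3.83% (wild type) and 7.47% (knockout) of these nuclei, and 1.06% and 2.60% did after thinning, against 0.190% and 0.309% in colonocyte-like nuclei. Without doublet removal its ratio over all nuclei was 1.42 and at Scrublet's own threshold 1.49, both under the call. The 6 MCM subunits had crypt base ratios from 0.910 (Mcm2) to 1.39 (Mcm4, 0.992 to 1.95). In the S-rich bin Mcm4 stood at 2.09 (1.19 to 3.83), from 18 and 46 UMIs, and Mcm2 at 0.657 (0.434 to 0.990), from 56 and 45. Mcm7, which had the most UMIs and the lowest ratio of the group, gave 507 and 496 UMIs (33.6 and 26.8 CPM), a ratio of 0.796 (0.702 to 0.902) over all nuclei. Mcm7 overlaps Cops6 and Ap4m1 on the other strand. The group as a whole stood at a crypt base ratio of 1.10 (1.02 to 1.19), with 6 of 9 members above 1.

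Of the 5 polymerase and nucleotide genes, Tyms had the most UMIs, 1034 and 1063, at 68.6 and 57.3 CPM and a ratio of 0.836 (0.767 to 0.912) over all nuclei. Its crypt base ratio was 1.03 (0.919 to 1.16). Pola1 had the highest ratio, from 706 and 989 UMIs (46.8 and 53.4 CPM), at 1.14 (1.03 to 1.26) over all nuclei and 1.22 (1.08 to 1.37) at the crypt base. Pcna, the sliding clamp, had the lowest, from 392 and 395 UMIs (26.0 and 21.3 CPM), at 0.820 (0.711 to 0.945) and 0.928 (0.748 to 1.15). The crypt base ratio of the group was 1.11 (1.04 to 1.19).

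The 3 E2F genes had the highest crypt base ratio of the 8 role groups, 1.38 (1.23 to 1.56). E2f8 and E2f7 are repressors that close the S phase program. E2f8 gave 353 and 536 UMIs over all nuclei (23.4 and 28.9 CPM), a ratio of 1.23 (1.08 to 1.42), and 1.43 (1.22 to 1.68) at the crypt base. E2f7 gave 174 and 260 UMIs, with 1.22 (0.999 to 1.48) and 1.43 (1.14 to 1.79). E2f1, an activator, gave 91 and 110 UMIs and stood at 0.983 (0.738 to 1.31) and 1.08 (0.758 to 1.56).

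All 6 genes of chromatin, cohesion and repair had crypt base ratios above 1, and the group stood at 1.24 (1.17 to 1.32). Ezh2 gave 1033 and 1513 UMIs over all nuclei, 68.5 and 81.6 CPM, a ratio of 1.19 (1.10 to 1.29). Crypt base-like nuclei gave 500 and 783 UMIs, 168 and 227 CPM, a ratio of 1.35 (1.20 to 1.51). Its ratio there was 0.974 (0.777 to 1.22) in the S-rich bin, 1.78 (1.41 to 2.26) in the middle bin and 1.37 (1.11 to 1.69) in the G2/M-rich bin. Brca1, a repair gene of homologous recombination, had the lowest ratio over all nuclei, 0.942 (0.798 to 1.11) from 272 and 315 UMIs. Neil3 stood at 1.28 (1.10 to 1.49) at the crypt base, from 293 and 434 UMIs.

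On the G2/M side the 7 cyclins and kinases had few UMIs and a crypt base ratio of 1.17 (1.02 to 1.34). The member past the call, Aurka, a spindle pole kinase, gave 39 and 28 UMIs at the crypt base, 13.1 and 8.11 CPM, a ratio of 0.618 (0.367 to 1.03). Its interval includes 1, and over all nuclei it gave 52 and 57 UMIs, a ratio of 0.892 (0.601 to 1.32), the lowest of the group. Cdk1, the kinase that starts mitosis, had the highest, 1.22 (0.893 to 1.68) from 70 and 105 UMIs. Plk1, with 194 and 242 UMIs the most counted, stood at 1.01 (0.836 to 1.23), with the limit of its neighbour given above.

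Kinetochore and checkpoint genes were the only role group below 1 at the crypt base among the 8, at 0.842 (0.798 to 0.889). Of its 5 members, 2 had ratios below 1. Cenpf (chr1:189640606-189688086, minus strand) gave 1919 and 1592 UMIs over all nuclei, 127 and 85.9 CPM, a ratio of 0.675 (0.631 to 0.721). At the crypt base it gave 1371 and 1129 UMIs, 461 and 327 CPM, a ratio of 0.709 (0.655 to 0.768). Its ratio in the 3 bins of the phase axis was 0.689 (0.448 to 1.05), 0.616 (0.492 to 0.770) and 0.763 (0.675 to 0.861). Cenpe, a kinesin that aligns chromosomes, gave 970 and 857 UMIs, with ratios of 0.719 (0.655 to 0.789) over all nuclei and 0.856 (0.765 to 0.958) at the crypt base. The checkpoint kinase genes Bub1 and Bub1b stood at 1.22 (0.927 to 1.60) and 1.12 (0.829 to 1.52) at the crypt base, and Knl1, their scaffold, at 1.07 (0.949 to 1.20). Bub1b had the highest ratio of the group over all nuclei, 1.19 (0.921 to 1.53) from 107 and 156 UMIs.

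The 8 spindle and cytokinesis genes stood at 1.13 (1.07 to 1.20) at the crypt base. Kif15, a kinesin that holds spindle poles apart, was highest over all nuclei with 580 and 851 UMIs, 38.5 and 45.9 CPM and a ratio of 1.19 (1.07 to 1.33), and its crypt base ratio was 1.37 (1.21 to 1.55). Kif23, a kinesin of the midbody and the most counted, gave 818 and 989 UMIs and a ratio of 0.983 (0.895 to 1.08). Aspm was lowest, at 0.885 (0.703 to 1.11) from 147 and 160 UMIs.

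The 5 chromosome structure genes summed to a crypt base ratio of 1.01 (0.969 to 1.05), but their members went apart. Mki67 (chr7:135689784-135716361, minus strand), the most counted member of all, gave 3266 and 3101 UMIs over all nuclei, 217 and 167 CPM, a ratio of 0.772 (0.735 to 0.811). At the crypt base its ratio was 0.859 (0.810 to 0.912), from 2208 and 2203 UMIs. Top2a gave 1368 and 1825 UMIs, with 1.09 (1.01 to 1.16) over all nuclei and 1.18 (1.09 to 1.28) at the crypt base. Smc4 was highest over all nuclei, at 1.12 (1.04 to 1.21) from 1150 and 1585 UMIs. Mki67 and Top2a, both common markers of dividing cells, thus had ratios on different sides of 1 in the same nuclei. By nuclei thinned to 500 UMIs, an Mki67 UMI was present in 22.2% (wild type) and 20.1% (knockout) of the crypt base-like class.

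Away from the crypt base, goblet-like nuclei of the knockout library held fewer UMIs of both sets. The S set had 1155 and 1016 UMIs there, a ratio of 0.767 (0.705 to 0.836), and the G2/M set 1965 and 1399 UMIs, a ratio of 0.621 (0.580 to 0.666). Of the 15 G2/M members with at least 50 UMIs, 11 were at least 1.5-fold lower, and of the 12 S members 6 were, against 7.89% of 9997 genes, and 0 members were higher, against 4.17%. Knl1 gave 90 and 35 UMIs there and a ratio of 0.339 (0.223 to 0.507). Mki67 gave 354 and 203 UMIs, a ratio of 0.500 (0.419 to 0.596). Smc4 (1.02), Plk1 (1.02) and Gins2 (1.08) were not lower. The UMIs lay in few nuclei: at least 10 member UMIs were present in 53 of 1763 nuclei (wild type) and 20 of 2132 (knockout), which held 51.5% and 27.2% of the member UMIs of the class. After thinning, 58 and 25 nuclei were cycling, a ratio of 0.356 (0.214 to 0.579). Within the class, cluster 7, led by Mptx1 and Reg4, was highest, with the G2/M set at 987 and 610 CPM, against 255 and 185 CPM in cluster 5, led by Fcgbp, Clca1 and Zg16. Cluster 7 held 493 of the 1763 nuclei of the class in wild type and 431 of the 2132 in knockout, so the class ratio also carries this difference in makeup. The G2/M ratio within clusters 3, 5 and 7 was 0.717 (0.645 to 0.798), 0.726 (0.609 to 0.865) and 0.618 (0.553 to 0.690).

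The goblet difference depended on which nuclei were placed in the class. Without doublet removal the S ratio was 1.00 and the G2/M ratio 0.827 (0.784 to 0.872), and with cell cycle genes kept in the clustering they were 0.908 and 0.936 (0.851 to 1.03). Doublet removal took 11.8% of wild-type and 19.1% of knockout nuclei with at least 10 member UMIs, against 6.76% and 9.05% of the others. All epithelial nuclei outside the crypt base-like class together had ratios of 0.929 (0.881 to 0.979) for the S and 0.815 (0.782 to 0.851) for the G2/M set, and colonocyte-like nuclei 0.952 (0.818 to 1.11) and 0.978 (0.845 to 1.13). The colonocyte-like class was made up differently in the libraries, with 403 and 646 nuclei in cluster 6, 501 and 421 in cluster 8 and 147 and 553 in cluster 9. Its G2/M ratio was 0.703 (0.545 to 0.908), 1.30 (1.02 to 1.67) and 0.830 (0.620 to 1.12) in these clusters.

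Outside the epithelium the values rest on few molecules. In T and innate lymphoid-like nuclei the G2/M set had 53 and 97 UMIs, a ratio of 1.95 (1.38 to 2.78), but 1 knockout nucleus held 52 member UMIs. Macrophage and dendritic-like nuclei had 62 and 145 G2/M UMIs, a ratio of 1.70 (1.25 to 2.32), and the largest knockout nucleus held 38 member UMIs. Plasma-like nuclei, 36 and 86 in number, had 44 and 135 G2/M UMIs, a ratio of 1.53 (1.08 to 2.20). Both sets were lower in the knockout fibroblast-like nuclei, with ratios of 0.672 (0.558 to 0.810) for S and 0.745 (0.608 to 0.915) for G2/M, and in smooth muscle-like nuclei, with 0.727 (0.544 to 0.974) and 0.720 (0.566 to 0.917). Lymphatic endothelium-like nuclei had ratios of 0.566 (0.365 to 0.870) and 0.522 (0.355 to 0.763), with 41 of the 126 wild-type member UMIs in 1 nucleus. In the wild-type fibroblast-like class 1 nucleus held 76 member UMIs of 389. In the wild-type smooth muscle-like class 3 nuclei held 66 member UMIs, and in the knockout class 0 nuclei reached 10. The part of these single nuclei and of free RNA in the ratios was not tested.

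Other genes of the cycle were set beside the members. Of 75 further S phase genes, 7 were at least 1.5-fold higher and 0 lower at the crypt base, where 3.67% of all 10338 genes were higher and 4.57% lower, with a median log2 ratio of 0.20. Over all nuclei, among genes with at least 50 UMIs, the highest were Ccne1, the cyclin of the G1 to S step, at 1.51 (0.987 to 2.35) from 35 and 65 UMIs, and the activator E2f2, from 314 and 580 UMIs, with an interval of 1.31 to 1.73. The lowest were Slbp, which binds histone mRNA, at 0.715 (0.667 to 0.766), and Cdca7 at 0.778 (0.694 to 0.872). Of 101 genes of the further G2/M list tested at the crypt base, 11 were higher and 2 lower, against the same 3.67% and 4.57%, with a median of 0.14. That list holds 9 histone genes of the Hist1h cluster, which are known to be made in S phase. Of these, 5 were tested and 4 were higher, and without them 7 of 96 were higher and 2 lower, with a median of 0.13. Over all nuclei, again with at least 50 UMIs, the highest of the list were the linker histone genes Hist1h1a at 2.97 (1.79 to 5.14) from 20 and 73 UMIs and Hist1h1e at 2.92 (2.65 to 3.22) from 536 and 1924. With that minimum the lowest were Kif18b, a kinesin, at 0.514 (0.295 to 0.879) from 38 and 24 UMIs, and Ube2t, a ubiquitin-conjugating enzyme, at 0.628 (0.540 to 0.730).

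Among lists of regulators of entry into and exit from the cycle, 33 genes had at least 50 UMIs at the crypt base, and 3 were higher and 1 lower, against 3.67% and 4.57% of all genes. Ccnd1, the cyclin of early G1, gave 180 and 333 UMIs, a ratio of 1.59 (1.33 to 1.92). Btg2, an antiproliferative gene, gave 180 and 435 UMIs, a ratio of 2.08 (1.75 to 2.49). Cdkn1a, which codes for the CDK inhibitor p21, gave 34 and 76 UMIs, a ratio of 1.93 (1.27 to 2.98). Sesn2, a stress-induced p53 target, gave 44 and 27 UMIs, a ratio of 0.529 (0.315 to 0.873). Btg2 and Cdkn1a were also higher over all nuclei, at 2.63 (1784 and 5771 UMIs) and 1.82 (784 and 1752 UMIs), and in the wild-type library their crypt base level was 0.423-fold and 0.164-fold that of other epithelium. The part of free RNA in their crypt base UMIs was not tested.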

How the data were processed

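Colon nuclei were counted with 10x 3′ chemistry. Per the file headers, the deposited UMI counts are raw and came from Cell Ranger 6.1.2. The build, per the submitters' processing notes, was mm10, which is GRCm38. Intron counting, strand setting and any doublet removal by the authors were not stated.

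Barcodes with at least 500 UMIs, 300 genes and at most 10% mitochondrial UMIs were kept (8888 wild-type and 12146 knockout). The highest Scrublet scores, 0.8% per 1000 barcodes, were removed as doublets (632 and 1180; Scrublet's own threshold called 382 and 869). Nuclei were clustered jointly in scanpy 1.11.5 (2000 variable genes without cell cycle genes, 30 components, 20 neighbours, Leiden resolution 1, 29 clusters). A cluster took the class whose markers had the highest mean log2 fold (5 CPM added), if at least 0.3 with 3 markers at least 2-fold higher; this rule was set after the data were seen, 3 epithelial clusters stayed unnamed, and names may differ from the study's. CPM were computed over nuclear-encoded genes (16997995 and 22446326 UMIs in all barcodes). Ratios carry exact conditional binomial intervals, shares Clopper-Pearson 95% intervals; calls add 0.5 to each count. The interval's coverage was tested on simulated data, and no conclusion here rests on that. The ratio interval treats UMIs as independent, so it can be too narrow where single nuclei hold many of them. edgeR 4.0.16 gave TMM factors only. Coordinates are GENCODE M21.

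The members and the gene lists were chosen with earlier results of these data known. Named were, per role group, the member with the most UMIs and the highest and lowest ratio, any member past 1.5-fold, the 2 highest and lowest of each other list, regulators past 1.5-fold and the 10 genes most concentrated with the members. Other members, bins and the goblet class results were named after their values were seen.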

Additional observations from a re-analysis of the deposited data

Results flagged for a closer look

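The knockout to wild-type ratio of the sets lay on different sides of 1 in different classes, each with an interval excluding 1, in classes with at least 100 nuclei per library. The difference between classes was not tested, since there is 1 library per genotype. For the S set the ratio was 1.18 in the crypt base-like class and 1.32 (1.03 to 1.71) in unnamed epithelial cluster 12, led by Mirg, Rian and Meg3, but 0.767 in goblet-like, 0.727 in smooth muscle-like and 0.672 in fibroblast-like nuclei. For the G2/M set it was 1.61 (1.30 to 2.00) in cluster 12, 1.13 (1.02 to 1.25) in unnamed epithelial cluster 4, led by Apol10a, Hsd3b3 and Reg3b, and 1.70 in macrophage and dendritic-like nuclei, but 0.886 (0.819 to 0.960) in unnamed epithelial cluster 0, 0.621 in goblet-like, 0.720 in smooth muscle-like and 0.745 in fibroblast-like nuclei. In cluster 12 the sets rest on 263 and 357 member UMIs, of which 1 wild-type nucleus held 49 and 5 knockout nuclei held 165. Other classes here also rest on few nuclei. In wild type 3 smooth muscle-like nuclei held 66 of 218 member UMIs, and 1 fibroblast-like nucleus held 76 of 389. In knockout 4 macrophage and dendritic-like nuclei held 80 of 266.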

How the results depend on the processing

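No paired analysis was possible because each genotype has 1 library. Of 161 alternatives run on the set ratios, shares and counts, 115 stayed within the main interval or within 1.5 times the main count, 45 moved and 1 reversed; of 304 run on single members and on counts along the phase axis, 287 stayed within it, 17 moved and 0 reversed. The cause of these moves was not tested. Those on the goblet class and the phase axis without histone genes were added after the data were seen. On that axis the S-rich Cenpf ratio was 0.802. The subtraction of free RNA was not run for the count of members higher at the crypt base, which was 43 to 46 elsewhere.

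Over all nuclei the S ratio was 1.06 with TMM factors. The G2/M ratio was 0.934 with TMM factors, 0.864 with thinned nuclei and 0.944 without Mki67. In crypt base-like nuclei the S ratio was 1.09 under the stricter filter and 1.05 with separate clustering. The G2/M ratio there was 0.954 thinned, 1.04 without Mki67, 0.945 under the stricter filter, 0.965 with cell cycle genes kept and 0.868 with separate clustering. The G2/M to S odds ratio was 0.917 without Mki67 and Ezh2. In the goblet-like class the S ratio turned to 1.00 without doublet removal and was 0.908 with cell cycle genes kept. The G2/M ratio there was 0.560 with 10% free RNA subtracted, 0.827 without doublet removal, 0.686 at resolution 0.5, 0.936 with cell cycle genes kept and 0.569 with separate clustering.

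The share of member UMIs at the crypt base, wild type then knockout, was 67.4% and 71.1% with free RNA subtracted, 54.4% and 57.0% under the looser filter, 55.6% and 53.7% without doublet removal, and 63.5% and 67.9% at Scrublet's own threshold. It was 22.5% and 20.5% at resolution 0.5, 34.2% and 33.1% at resolution 2, 76.3% and 75.3% with cell cycle genes kept and 61.1% and 66.7% with separate clustering, and 69.1% in knockout under the stricter filter. S members called over all nuclei numbered 0 without doublet removal and 0 at Scrublet's threshold; G2/M members 2 when thinned and 1 under the stricter filter. At the crypt base S members numbered 4 at resolution 0.5, 2 at resolution 2 and 2 with cell cycle genes kept; G2/M members 2 at resolution 2, 0 with cell cycle genes kept and 2 with separate clustering. The cycling share ratio ranged from 0.885 to 1.02. Depth limits Aurka, with 39 and 28 UMIs at the crypt base, and Ccnb2, with 25 and 30.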

Other observations

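Genes outside all cell cycle lists were ranked by how far they were concentrated in nuclei with members. Epithelial nuclei with at least 5 member UMIs (915 wild-type, 1093 knockout, median 1879 and 1753 UMIs) were set against those with none (2969 and 3809, median 1472 and 1586 UMIs), with 0.5 added to each count, over 6251 genes. Ankle1, a nuclease that acts on chromatin bridges, was 217-fold higher in wild type and 103-fold in knockout, from 127 and 184 UMIs in the first kind of nuclei and 1 and 5 in the second. Rad54b, a recombination gene, was 65.5-fold and 158-fold higher, with 6 and 4 UMIs in nuclei without members. Fsbp overlaps Rad54b on the same strand, so their reads cannot be told apart. It had 104 and 88 UMIs in nuclei with members and 4 and 1 in those without, too few for a fold of any precision. Fam111a, a protease of the replication fork, was 45.9-fold and 47.2-fold higher, and Zwilch, of the kinetochore corona, 35.3-fold and 70.3-fold. Ecm2, a gene of the extracellular matrix at 34.4-fold and 73.8-fold, overlaps the kinetochore gene Cenpp on the other strand, and no strand setting was stated. Rad51b, Knstrn, Slfn9 and Chtf18 completed the 10, at 25.4-fold to 33.7-fold in wild type and 27.8-fold to 43.5-fold in knockout. The folds are on the CPM scale and so are scaled for the UMIs of each kind of nuclei. The nuclei were picked by counts without thinning, and the medians above differ between the 2 kinds.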
